A study of Arabidopsis thaliana with 7 samples.

Results

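The genes described here are 37 nuclear genes of Arabidopsis thaliana that encode proteins of the plastid ribosome. Other nuclear genes of this ribosome, such as PSRP1, are compared further below. The 37 members comprise 9 genes of its small subunit, 24 of its large subunit and 4 of plastid-specific ribosomal proteins (PSRPs). PSRPs are named for being absent from the standard bacterial set. The members were chosen by their identity, as every row of the deposited expression table that carries 1 of their locus identifiers. All 37 were found, as 38 transcript models, in a table of 21184 genes. Polyadenylated RNA of whole seedlings was sequenced 5 days after germination. The groups were tt4-11, described in the labels as lacking chalcone synthase activity through a null lesion, with 3 libraries (replicates 2 to 4), and the wild type Col-0, with 4 libraries (replicates 1 to 4). Both groups grew at 22 °C in continuous light (24 h, about 100 µE) on a medium with 2% sucrose, which the series describes as favouring flavonoid synthesis, and no further agent or allele is named for either. tt4-11 is 1 mutant line, so an effect of the lesion cannot be told apart from any other difference between that line and Col-0.

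The plastid ribosome is of the bacterial type and translates the proteins encoded by the chloroplast's own genome, among them core subunits of the photosystems, the ATP synthase and the large subunit of Rubisco. Its ribosomal RNAs and a minority of its proteins are made in the plastid, and the remaining proteins are encoded in the nucleus, translated in the cytosol and imported. In seedlings these nuclear genes are known to be expressed most strongly while leaves green and expand, and loss of many of them gives pale plants or arrests the embryo. The plastid-encoded ribosomal proteins and RNAs were not analysed here.

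Each library held 2021368 to 2205449 reads, and all values below are reads scaled by the authors to a common depth and summed over the models of a gene (scaled reads). TT4, the gene of chalcone synthase, had 58.0, 96.7 and 54.9 scaled reads in the tt4-11 libraries, against 3003, 2571, 3148 and 2464 in the Col-0 libraries. The first principal component of all tested genes separated the groups (44.7% of the variance). Col-0 replicate 1 stood apart on the second component (14.5%), and it had the most reads of the Col-0 libraries in 20 of 34 tested ribosomal protein genes. Several results are therefore also given without it. Markers of green tissue, roots and dividing cells were all detected in both groups.

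The comparison asks how the level of each of these transcripts in the chalcone synthase mutant compares with the wild type. Of the 34 genes with enough reads to be tested, 13 were lower in tt4-11, 1 was higher, and 20 did not pass the test. The test was limma on log2(scaled reads + 1), fitted over 13301 genes with Benjamini-Hochberg adjustment at 0.05, two-sided, and it gives every adjusted p below. The share of members called lower, 38.2%, compares with 6.55% of all tested genes called lower, while 7.07% of all tested genes were called higher. Fitted changes of the 13 lower members ran from -0.38 (RPL11) to -0.96 (RPL24) on the log2 scale, that is 23.2% to 48.6% below Col-0. The higher member was RPS1, at 0.54 or 45.8% above Col-0. Over the 34 genes the median change was -0.29, against -0.01 over all tested genes, and 26 of the 34 changes were negative. In 17 of the 34 the highest tt4-11 library was below the lowest Col-0 library, which held for 12.9% of all tested genes. In 1, RPS1, every tt4-11 library lay above every Col-0 library, as in 13.7% of all tested genes, and in 16 the groups overlapped. The labels do not say whether replicates were separate cultures, so a p-value here reflects the spread among these libraries alone. In whole seedlings, fewer cells that express the genes and less RNA per cell cannot be told apart. Leaving out tt4-11 replicate 3 brought the number called lower to 3, when 3.21% of all tested genes were called lower and 3.64% higher. Leaving out either tt4-11 replicate 2 or tt4-11 replicate 4 brought it to 8, when 3.85% and 3.45% of all tested genes were called lower and 4.47% and 3.13% higher.

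**Figure D1:**
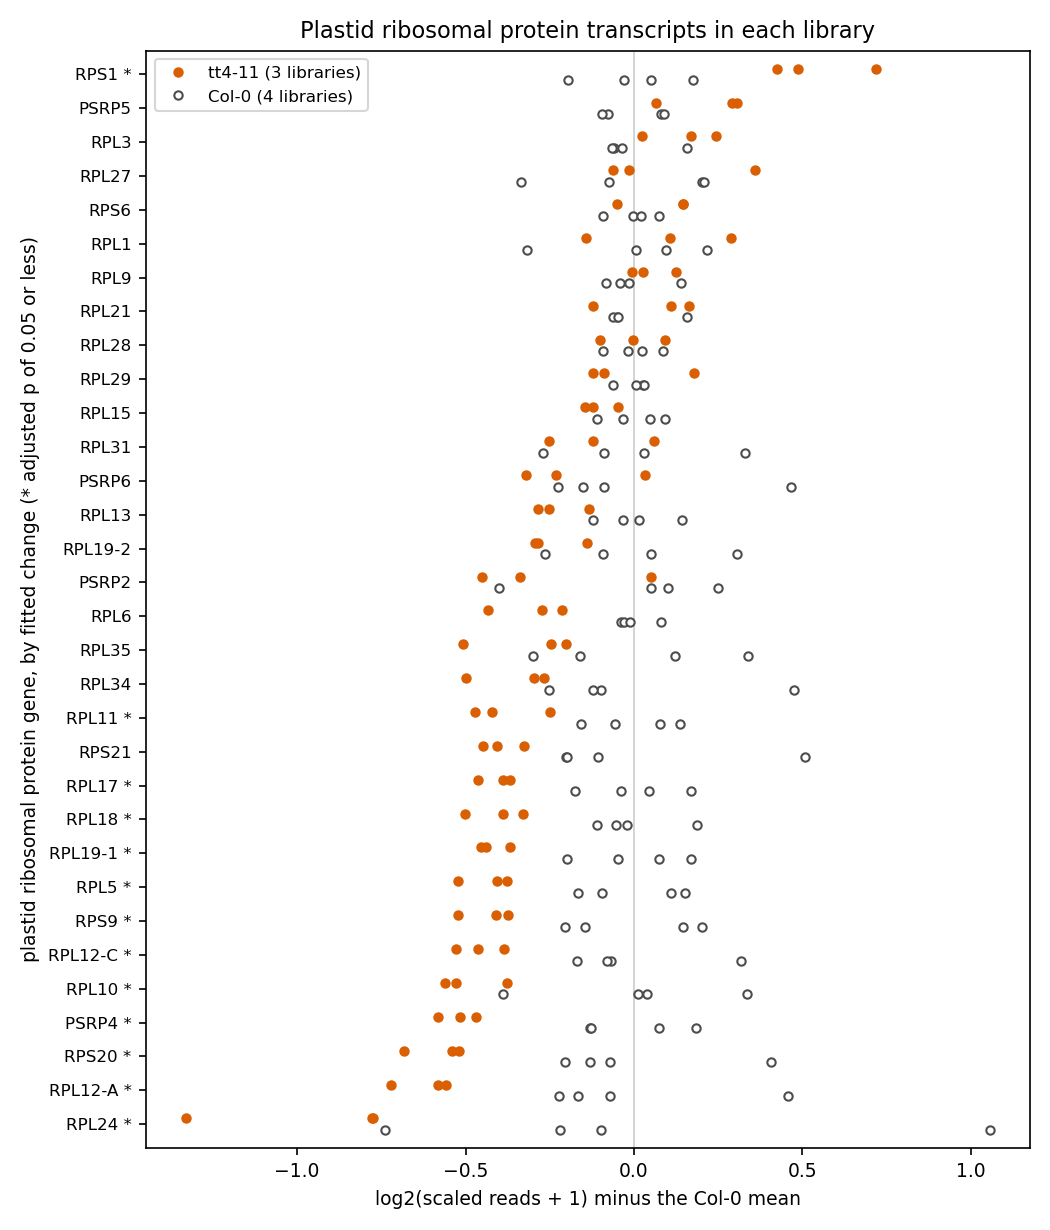
Each row is 1 of 32 tested genes, ordered by fitted change, and each point is 1 library (filled, 3 tt4-11 libraries; open, 4 Col-0 libraries); the horizontal axis is log2(scaled reads + 1) minus the mean of the Col-0 libraries, and an asterisk marks an adjusted p of 0.05 or less. RPS1 at the top has every tt4-11 point right of every Col-0 point, the 12 lower genes with asterisks fill most of the bottom rows, and the Col-0 points reach farthest right in RPL24.

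RPS1 was the exception among the small-subunit genes and among all members. Its product is the plastid form of ribosomal protein S1, which in the bacterium Escherichia coli binds mRNA and brings it to the small subunit. RPS1 (AT5G30510, chr5:11619000-11621298, minus strand, 7 exons) had 3166, 3028 and 3714 scaled reads in tt4-11 replicates 2 to 4, against 1968, 2211, 2335 and 2549 in Col-0 replicates 1 to 4. Every tt4-11 library lay above every Col-0 library, and tt4-11 replicate 4 was the highest. The means were 3303 ± 363 in tt4-11 and 2266 ± 243 in Col-0 (SD, n = 3 and 4), a change of 0.54 (SE 0.11; adjusted p = 0.0045, limma). RPS1 kept its call in each of the 21 alternative settings run for it, which hold the fit without Col-0 replicate 1 under a second name as well. Its changes were 0.46 to 0.60 when a single library was left out. It had the most scaled reads of the 37 genes, and its part of their summed reads was 14.1, 13.7 and 15.4% in tt4-11 replicates 2 to 4, against 7.03, 9.30, 9.46 and 10.3% in Col-0 replicates 1 to 4. The 150 bases before its annotated start are shown because it moved opposite to the other called members. They lie at chr5:11621299-11621448, minus strand, in the TAIR10.1 build and are written 5′ to 3′ on the gene's strand, with a match to an I-box (GATAAG or its reverse complement CTTATC, a sequence known from light-regulated promoters) in capitals.
RPS1: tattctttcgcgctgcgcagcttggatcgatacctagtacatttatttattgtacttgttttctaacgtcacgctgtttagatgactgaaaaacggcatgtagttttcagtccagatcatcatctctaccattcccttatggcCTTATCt

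Of other small-subunit genes, RPS20 and RPS9 were lower in tt4-11. RPS20 (AT3G15190, chr3:5116021-5117615, plus strand), which binds the small-subunit rRNA in bacteria, had 452, 404 and 446 scaled reads in tt4-11 replicates 2 to 4, against 859.7, 617, 593 and 563 in Col-0 replicates 1 to 4. Col-0 replicate 1 stood well above the other Col-0 libraries, and all 3 tt4-11 libraries were below all of them. RPS20 fell by 0.58 on the log2 scale (SE 0.13; adjusted p = 0.0084, limma), and by 0.45 without Col-0 replicate 1 (adjusted p = 0.00504), but its adjusted p was 0.0514 without tt4-11 replicate 3. With trends of transcript length and GC content removed from each library its change was -0.25 (adjusted p = 0.159). RPS9 (AT1G74970, chr1:28157386-28159317, minus strand), whose tail reaches the transfer RNA in bacterial ribosomes, had 499.7, 462 and 512 scaled reads in tt4-11 replicates 2 to 4, against 765, 577, 736 and 601 in Col-0 replicates 1 to 4. The groups did not overlap, with Col-0 replicates 1 and 3 highest, and the change was -0.44 (SE 0.11; adjusted p = 0.0198, limma). Its adjusted p was 0.0583, 0.0961 and 0.0587 without tt4-11 replicate 2, tt4-11 replicate 3 and Col-0 replicate 3. It was 0.0933 with the length trend removed, and with both removed the change was -0.22 (adjusted p = 0.21).

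**Figure D2:**
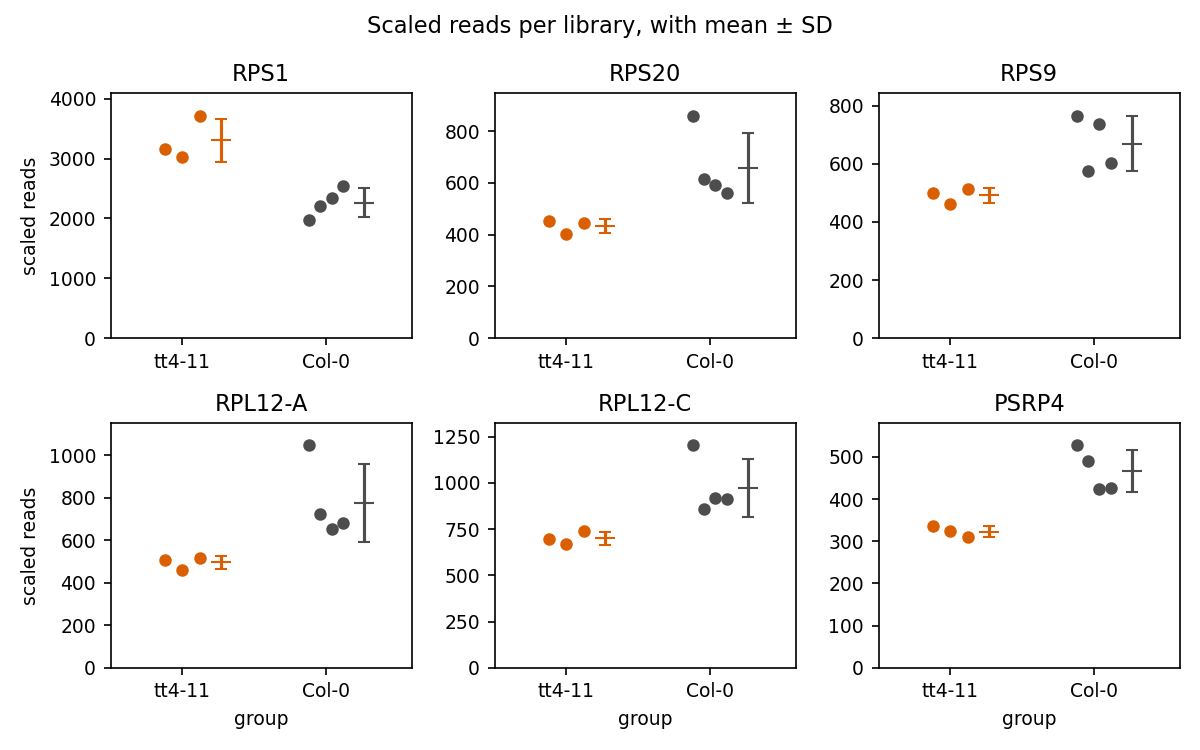
Scaled reads of 6 genes, with 1 point per library (3 tt4-11 libraries on the left, 4 Col-0 libraries on the right of each panel) and the mean ± SD beside the points; each vertical axis starts at 0. RPS1 is higher in all 3 tt4-11 libraries, and the other 5 genes are lower, with Col-0 replicate 1 (first Col-0 point) the highest library in each of these 5.

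RPS21, RPS6, RPS10 and RPS13 had no call. RPS21 (AT3G27160), identified through a sugar-hypersensitive mutant of Arabidopsis (GHS1), had 768, 705 and 726 scaled reads in tt4-11 replicates 2 to 4, against 1369, 837, 838 and 894 in Col-0 replicates 1 to 4. All Col-0 libraries were above all tt4-11 libraries, Col-0 replicate 1 by far the most, and the change was -0.39 (SE 0.14; adjusted p = 0.0806, limma), or -0.22 without that library. RPS6 (AT1G64510) averaged 1012 ± 77.9 in tt4-11 and 957 ± 45.8 in Col-0, with overlapping groups and a change of 0.08 (SE 0.10; adjusted p = 0.621, limma). RPS10 and RPS13 were not tested: RPS10 had 10 reads over the tt4-11 libraries and 31 over the Col-0 libraries, and RPS13 had 5 and 8. Both have several annotated models, and the median scaled level in the whole table is 9.73 for genes with several models, against 39.2 for genes with 1. RPS21 and RPS6 also have several models, and the part of this in the low counts of RPS10 and RPS13 was not tested.

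In the large subunit, with the plastid-specific PSRP5 and PSRP6 left out, 9 of 23 tested genes were lower in tt4-11 and none was higher. Their median change was -0.31. At an unadjusted p under 0.05 none of the 23 was higher by limma either, and edgeR, DESeq2 and limma-voom called none of them higher. With PSRP5 and PSRP6 included, 9 of 25 (36.0%) were lower, against 6.55% of all tested genes, and the median was -0.24. PSRP5 was then higher at an unadjusted p of 0.0428 (limma). The L12 stalk is the flexible arm that recruits translation factors, and all 4 of its tested genes were lower, against 6.55% of all tested genes, with a median change of -0.47. With the length trend removed 1 of the 4, RPL12-A, stayed called. RPL12-A (AT3G27830, chr3:10318455-10319920, plus strand), which encodes a stalk tip protein, had 509, 462 and 518 scaled reads in tt4-11 replicates 2 to 4, against 1048, 727, 653 and 680 in Col-0 replicates 1 to 4. Col-0 replicate 1 was far above the other Col-0 libraries, and all 3 tt4-11 libraries lay below all of them. RPL12-A fell by 0.62 (SE 0.14; adjusted p = 0.00807, limma). Without Col-0 replicate 1 it fell by 0.47 (adjusted p = 0.00345, limma). It kept its call in each of the 20 settings run for it, which hold that fit under a second name as well. RPL12-C (AT3G27850, chr3:10324788-10325746, plus strand), its paralogue, had 699, 668 and 738 scaled reads in tt4-11 replicates 2 to 4, against 1204, 857, 919 and 912 in Col-0 replicates 1 to 4. Again the groups did not overlap and Col-0 replicate 1 was highest, with a change of -0.46 (SE 0.12; adjusted p = 0.0155, limma). It did not pass when tt4-11 replicate 2 (adjusted p = 0.0558) or 3 (0.0752) was left out, nor with the length trend removed (-0.32, adjusted p = 0.0875). The paralogues lie 4868 bases apart on chromosome 3. Of the 1367 windows of 100 bases, the read length, in the genomic span of RPL12-A, 157 (11.5%) also occur in RPL12-C. Reads from those stretches cannot be assigned to either gene.

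The stalk base gave the same direction with less certainty. RPL10 (AT5G13510, chr5:4341262-4342095, plus strand), the protein that anchors the L12 copies, had 318, 311 and 353 scaled reads in tt4-11 replicates 2 to 4, against 581, 472, 464 and 351 in Col-0 replicates 1 to 4. Col-0 replicate 4 lay below tt4-11 replicate 4, so the groups overlapped, and the change of -0.49 passed the test (SE 0.14; adjusted p = 0.0273, limma). It did not pass without Col-0 replicate 2 or 3 (adjusted p = 0.0566 and 0.0595) or without tt4-11 replicate 2, 3 or 4 (adjusted p = 0.0959, 0.11 and 0.0522), and its change was -0.62 without Col-0 replicate 4. With the length trend removed it was -0.35 (adjusted p = 0.145), and with the GC trend removed too -0.10 (adjusted p = 0.65). RPL11 (AT1G32990, chr1:11955656-11957402, plus strand), which sits at the base of the stalk and whose loss makes Arabidopsis plants pale, had 202, 195 and 228 scaled reads in tt4-11 replicates 2 to 4, against 298, 243, 261 and 286 in Col-0 replicates 1 to 4. Groups were separate, and the change was -0.38 (SE 0.12; adjusted p = 0.0371, limma), close to the threshold. The call was lost without Col-0 replicate 1, 3 or 4 (adjusted p = 0.0571, 0.0586 and 0.071) and without tt4-11 replicate 2, 3 or 4 (adjusted p = 0.118, 0.154 and 0.0544). It was also lost with the length trend removed (-0.26, adjusted p = 0.158), and by DESeq2. Summed over the 4 stalk genes, the share of all scaled reads was 0.0859, 0.0817 and 0.0887% in tt4-11 replicates 2 to 4, against 0.149, 0.114, 0.112 and 0.110% in Col-0 replicates 1 to 4. Every tt4-11 library was below every Col-0 library, with a ratio of means of 0.705, and of 0.763 without Col-0 replicate 1.

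The upstream bases of the RPL12 pair are given because both paralogues were lower. The stretches lie at chr3:10318305-10318454, plus strand, and chr3:10324638-10324787, plus strand (TAIR10.1, 5′ to 3′), and neither holds an I-box, site II (TGGGCC or TGGGCT on either strand, known from promoters of ribosomal protein and cell-growth genes) or the telo-box (AAACCCTA or its reverse complement, known from genes of the translation machinery), so no letters are in capitals. A tRNA gene ends 121 bases before the start of RPL12-A and 77 bases before that of RPL12-C, so the first part of both stretches is tRNA sequence.
RPL12-A: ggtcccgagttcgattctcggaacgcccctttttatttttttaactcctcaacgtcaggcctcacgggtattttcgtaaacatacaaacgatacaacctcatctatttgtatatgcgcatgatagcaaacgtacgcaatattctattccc
RPL12-C: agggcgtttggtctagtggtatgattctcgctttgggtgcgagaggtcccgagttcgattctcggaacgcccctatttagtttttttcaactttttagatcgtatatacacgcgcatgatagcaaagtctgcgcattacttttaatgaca

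Both genes for proteins that bind the 5S rRNA, a class of only 2, were lower, against 6.55% of all tested genes. RPL5 (AT4G01310, chr4:543911-545566, minus strand) had 638, 577 and 625 scaled reads in tt4-11 replicates 2 to 4, against 894, 776, 921 and 739 in Col-0 replicates 1 to 4. The groups were separate, and RPL5 fell by 0.43 (SE 0.10; adjusted p = 0.0124, limma), with an adjusted p of 0.0712 without tt4-11 replicate 3. RPL18 (AT1G48350, chr1:17867102-17868432, plus strand) had 339, 300.1 and 325 scaled reads in tt4-11 replicates 2 to 4, against 484, 394, 419 and 410 in Col-0 replicates 1 to 4. All 3 tt4-11 libraries were below every Col-0 library, and the change was -0.41 (SE 0.11; adjusted p = 0.0195, limma). It was not called without tt4-11 replicate 3 or 4 (adjusted p = 0.101 and 0.062). Neither was called with the length trend removed (adjusted p = 0.0647 for RPL5 and 0.12 for RPL18), and with the GC trend removed too the changes were -0.17 and -0.17.

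Of the remaining large-subunit genes, RPL17, RPL19-1 and RPL24 were lower. RPL17 (AT3G54210, chr3:20067540-20068614, minus strand), which in bacteria lies near the exit of the peptide tunnel, had 866, 810.2 and 853 scaled reads in tt4-11 replicates 2 to 4, against 1152, 1089, 1257 and 989 in Col-0 replicates 1 to 4. The groups did not overlap, and RPL17 fell by 0.41 (SE 0.10; adjusted p = 0.0147, limma), with an adjusted p of 0.0734 without tt4-11 replicate 3. RPL24 (AT5G54600, chr5:22182843-22184610, plus strand), which in Escherichia coli starts the assembly of the large subunit, had 99.2, 99.4 and 67.4 scaled reads in tt4-11 replicates 2 to 4, against 356, 159.6, 147 and 102 in Col-0 replicates 1 to 4. Its Col-0 libraries ranged widely and Col-0 replicate 4 came close to the tt4-11 libraries. The fall of 0.96 had the widest error of the called genes (SE 0.29; adjusted p = 0.036, limma) and was 0.61 without Col-0 replicate 1. The call was lost without Col-0 replicate 2 or 3 (adjusted p = 0.0553 and 0.0523) and without tt4-11 replicate 2, 3 or 4 (adjusted p = 0.0734, 0.0729 and 0.154). With the length trend removed neither passed (adjusted p = 0.104 for RPL17 and 0.0844 for RPL24), and with both trends removed the change of RPL17 was -0.14.

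RPL19 is encoded by a pair of genes, of which RPL19-1 was called. RPL19-1 (AT4G17560, chr4:9780224-9782183, plus strand) had 454, 433 and 428 scaled reads in tt4-11 replicates 2 to 4, against 660, 618, 510.5 and 568 in Col-0 replicates 1 to 4. RPL19-2 (AT5G47190, chr5:19164184-19166135, minus strand) had 621, 561 and 558 scaled reads in tt4-11 replicates 2 to 4, against 846, 641, 569.6 and 708 in Col-0 replicates 1 to 4. In RPL19-1 the groups were separate, while in RPL19-2 the tt4-11 values reached into the Col-0 range, which again was topped by Col-0 replicate 1. The changes were -0.42 for RPL19-1 (SE 0.11; adjusted p = 0.0162, limma) and -0.24 for RPL19-2 (SE 0.12; adjusted p = 0.207, limma), and the difference between them was not tested. RPL19-1 was not called without tt4-11 replicate 3 or 4 (adjusted p = 0.0673 and 0.0667), nor with the length trend removed (0.0567). Without Col-0 replicate 1 the change of RPL19-2 was -0.14. The pair shares none of the 1861 windows of 100 bases in the genomic span of RPL19-1, introns included. Stretches across splice junctions were not compared, so reads there were not checked. The 150 bases before RPL19-1 (chr4:9780074-9780223, plus strand, TAIR10.1, 5′ to 3′) are shown for their several site II matches, in capitals. The first is a palindrome in which a match on each strand overlaps the other.
RPL19-1: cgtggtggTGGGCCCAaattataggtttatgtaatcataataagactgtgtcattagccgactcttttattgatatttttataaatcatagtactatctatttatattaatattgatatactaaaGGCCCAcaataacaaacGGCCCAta

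The other 14 tested large-subunit genes did not pass the test. RPL6 (AT1G05190) came nearest, with 397, 341 and 380.4 scaled reads in tt4-11 replicates 2 to 4, against 448, 486, 451 and 456 in Col-0 replicates 1 to 4. All 3 tt4-11 libraries were below all Col-0 libraries and the change was -0.31 (SE 0.10; adjusted p = 0.0526, limma). RPL34 (AT1G29070) and RPL13 (AT1G78630) also had separate groups, with changes of -0.35 and -0.22. RPL34 had 958, 1102 and 1126 scaled reads in tt4-11 replicates 2 to 4, against 1882, 1264, 1243 and 1136 in Col-0 replicates 1 to 4, where Col-0 replicate 1 stood far above the rest (adjusted p = 0.107, limma), and its change was -0.20 without that library. Averaged over all 7 libraries of both groups, RPL13 and RPL21 had the most scaled reads after RPS1. RPL13 had 1259, 1133 and 1159 scaled reads in tt4-11 replicates 2 to 4, against 1268, 1349, 1395 and 1524 in Col-0 replicates 1 to 4 (adjusted p = 0.136, limma), the groups being separate by a small margin. In the other 11 genes the groups overlapped. RPL21 (AT1G35680), whose loss arrests Arabidopsis embryos, had 1138, 1386 and 1335 scaled reads in tt4-11 replicates 2 to 4, against 1380.2, 1195, 1186 and 1198 in Col-0 replicates 1 to 4, with tt4-11 replicate 2 the lowest library and a change of 0.05 (SE 0.10; adjusted p = 0.787, limma). RPL35, RPL19-2, RPL31 and RPL15 had changes of -0.32, -0.24, -0.11 and -0.10. Without Col-0 replicate 1 the change was -0.20 for RPL35, -0.20 for RPL31, 0.10 for RPL21, 0.16 for RPL1 and -0.02 for RPL27, none of them called. RPL28 and RPL29 averaged 539.6 ± 36.2 in tt4-11 and 541 ± 28.3 in Col-0, and 579 ± 68.1 in tt4-11 and 581 ± 16.9 in Col-0 (SD, n = 3 and 4), with changes of 0.00 (SE 0.10) and -0.01 (SE 0.10). Positive changes were seen in RPL3 (0.15), whose protein lies near the peptidyl transferase centre, RPL27 (0.09), which reaches into that centre in bacteria, RPL1 of the L1 stalk (0.08), and RPL9 (0.05). The adjusted p-values of these 4 ran from 0.351 (RPL3) to 0.795 (RPL9) by limma. RPL4, a protein of the peptide tunnel wall with several annotated models, was not tested, with 12 reads over the tt4-11 libraries and 26 over the Col-0 libraries.

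Of the 4 plastid-specific proteins among the members PSRP4 was lower and the others did not pass. PSRP4 (AT2G38140, chr2:15980848-15981612, plus strand), a small protein of the small subunit, had 335, 324 and 310.1 scaled reads in tt4-11 replicates 2 to 4, against 527, 489, 424 and 425 in Col-0 replicates 1 to 4. The groups were well apart and PSRP4 fell by 0.52 (SE 0.11; adjusted p = 0.00541, limma), a call kept in all 7 runs that left out 1 library and lost with the length and GC trends removed (-0.35, adjusted p = 0.0597). PSRP2 (AT3G52150), an RNA-binding protein of the small subunit, had 35.6, 24.9 and 26.96 scaled reads in tt4-11 replicates 2 to 4, against 25.8, 35.6, 36.9 and 41.0 in Col-0 replicates 1 to 4. Its groups overlapped at this low level, and the change was -0.25 (SE 0.22; adjusted p = 0.496, limma), or -0.38 without Col-0 replicate 1. PSRP5 (AT3G56910), of the large subunit, had 1004, 1187 and 1174 scaled reads in tt4-11 replicates 2 to 4, against 1015, 910.2, 899 and 1021 in Col-0 replicates 1 to 4. PSRP5 overlapped between groups, with tt4-11 replicate 2 inside the Col-0 range, and its change was 0.22 (SE 0.10; adjusted p = 0.155, limma). PSRP6 (AT5G17870), also of the large subunit, had 382, 407 and 488 scaled reads in tt4-11 replicates 2 to 4, against 660, 449, 429.9 and 408 in Col-0 replicates 1 to 4. Only Col-0 replicate 1 stood clear of the other libraries, and the change was -0.17 (SE 0.15; adjusted p = 0.469, limma), or -0.02 without that library. The 150 bases before PSRP4 (chr2:15980698-15980847, plus strand, TAIR10.1, 5′ to 3′) are given because it held its call in every run that left out a library. Capitals mark matches to site II and the telo-box. A match to the G-box (CACGTG), which begins 80 bases before the start, is left in lower case.
PSRP4: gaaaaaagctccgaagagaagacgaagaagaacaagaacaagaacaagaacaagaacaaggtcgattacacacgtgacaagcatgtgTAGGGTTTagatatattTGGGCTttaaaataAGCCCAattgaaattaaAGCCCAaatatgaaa

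As a share of all scaled reads in a library, the 37 genes together made up 1.12, 1.1 and 1.16% in tt4-11 replicates 2 to 4, against 1.33, 1.18, 1.20 and 1.23% in Col-0 replicates 1 to 4. The tt4-11 libraries were lower throughout, by a small margin, and the ratio of means was 0.914 (0.938 without Col-0 replicate 1). The large-subunit genes accounted for 0.681% ± 0.0129 in tt4-11 and 0.791% ± 0.0431 in Col-0 (SD, n = 3 and 4). Their groups were separate, with a ratio of 0.862 (0.885 without Col-0 replicate 1). The small-subunit genes accounted for 0.353% ± 0.0199 in tt4-11 and 0.348% ± 0.0192 in Col-0, with overlapping groups. Without RPS1 they made up 0.190% ± 0.00738 in tt4-11 and 0.237% ± 0.0260 in Col-0, and the groups were separate. The plastid-specific genes held 0.0936% ± 0.00548 in tt4-11 and 0.0950% ± 0.00782 in Col-0, and their groups overlapped.

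Levels of different genes can be compared per length, and only in the 27 members with 1 annotated model. In scaled reads per kilobase of exon, RPS1 averaged 2079.7 ± 229 in tt4-11 and 1427 ± 153 in Col-0 (SD, n = 3 and 4). PSRP5 averaged 1618 ± 147 in tt4-11 and 1387 ± 95.1 in Col-0. RPL21 averaged 1369.6 ± 139 in tt4-11 and 1320.2 ± 99.9 in Col-0, and RPL34 averaged 1297 ± 111 in tt4-11 and 1686 ± 413 in Col-0. In tt4-11 RPS1 stood first, ahead of PSRP5, RPL21 and RPL34. In Col-0 the order of the means was RPL34, RPS1, PSRP5 and RPL21, where neighbours differed by less than the larger of their SDs. The RPL34 mean in Col-0 includes replicate 1, which stood far above the other Col-0 libraries for this gene. The lowest levels per kilobase were those of RPL11 (189 ± 15.8 in tt4-11 and 247 ± 22.4 in Col-0) and RPL9 (297 ± 14.0 in tt4-11 and 287 ± 19.9 in Col-0). Members of 1 ribosome therefore differed by several fold in transcript level per length in both groups.

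Transcript length moved with the change across the genome. Over 13091 tested genes with an annotated length, the change rose with summed exon length (Spearman's rho = 0.30 across genes, which share libraries and are not independent replicates), and the ribosomal protein genes are short, with a median of 1007 bases against 1820 over all tested genes. Among the 34 members rho was 0.07, and it was -0.01 without RPS1, the longest. In genes of up to 900 bases, 36.4% of 11 members were called lower, against 12.9% of all tested genes of that length. Above 900 and up to 1100 bases it was 40% of 10 members, against 13.4%, and above 1100 and up to 1300 bases 57.1% of 7, against 13.8%. Above 1300 bases 1 of 6 members (16.7%) was called lower, against 4.46% of all tested genes above that length. This last class has no upper bound and also holds genes longer than the longest member (1588 bases). With the trend of each library with length removed, 4 members stayed lower, among them RPS20, RPL12-A and PSRP4, against 4.89% of all genes called lower, and RPS1 and PSRP5 were higher, against 5.45%. The median change of the members was then -0.18, against -0.03 over all genes. With GC content removed as well, RPL12-A stayed lower, against 4.21% of all genes, RPS1, PSRP5 and RPL3 were higher, against 5.25%, and the median was -0.11. The part that length or GC content plays in the lower calls was not tested.

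**Figure D3:**
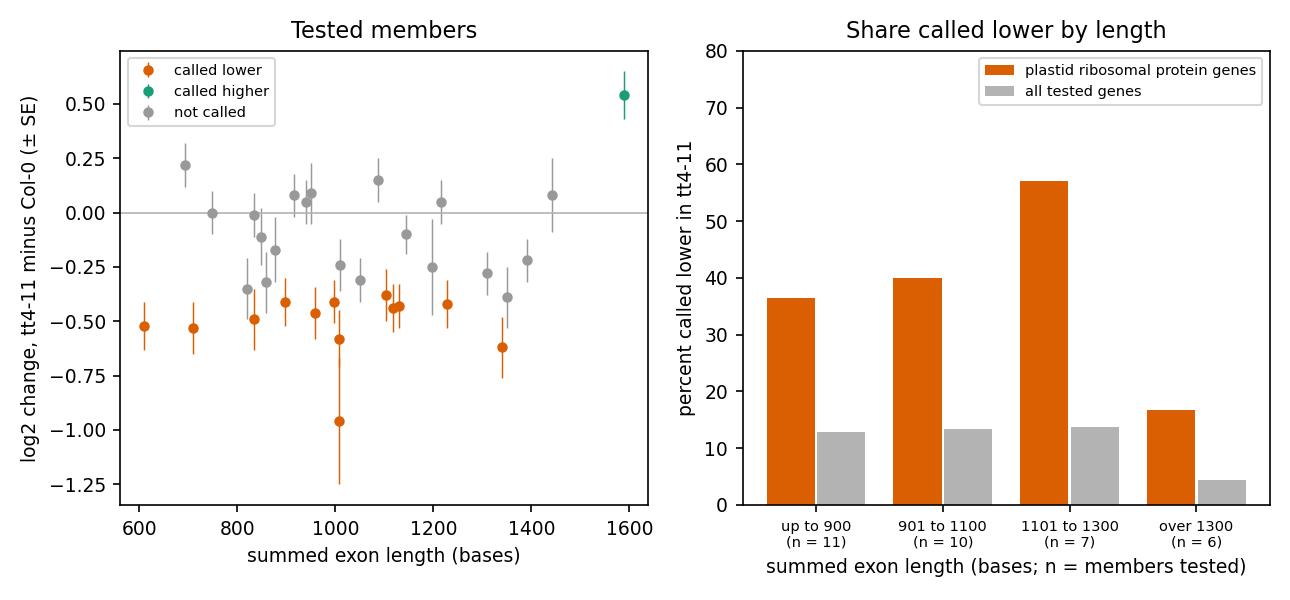
Left, fitted log2 change (tt4-11 minus Col-0, with SE) of the 34 tested members against summed exon length in bases; right, percent of genes called lower in tt4-11 in 4 classes of exon length, for the members and for all tested genes. Over the members rho is 0.07. In each class the members' bar is above that of all tested genes in the class (36.4% against 12.9% in the shortest). The longest class has no upper bound and also holds genes longer than the longest member (1588 bases).

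The number of calls depended on which library was left out more than on the tool. edgeR on the recovered reads called the same 13 members lower, against 6.37% of all genes it tested, and RPS1 higher, against 7.51%. DESeq2 called 11 lower, against 5.52%, and RPS1 higher, against 6.16%. limma-voom called 12 lower, against 6.02%, and RPS1 higher, against 7.68%. Fitted over genes with 1 annotated model alone, 12 of 27 members were lower, against 8.77% of such genes, and RPS1 was higher, against 7.51%. Leaving out Col-0 replicate 1, which held the highest Col-0 value in 11 of the 13 lower members, gave 13 lower members, against 5.86% of all tested genes, of which 12 were shared with the full set. RPS1 was then the 1 higher member, against 6.73%, and the median change was -0.24. In that fit the changes were -0.35 in RPL12-C, -0.38 in RPL10, -0.37 in RPS9 and -0.34 in RPL18, each smaller than with all libraries and still called. Relative to the Col-0 mean, the median deviation of the 34 members was -0.31, -0.30 and -0.26 in tt4-11 replicates 2 to 4, against 0.15, -0.08, -0.03 and -0.03 in Col-0 replicates 1 to 4. In the authors' deposited table, 11 members were lower at an adjusted p of 0.05, against 2.89% of all models, and RPS1 was higher with a log2 change of 0.52 (adjusted p = 8.89e-05), against 3.17%. All 11 were among the 13 above, and the authors' deposited table gave RPL11 and RPL24 adjusted p-values of 0.0555 and 0.133. The shares beside the authors' calls are over all 23051 deposited models, including those with few reads. They are therefore not on the same footing as the shares of tested genes given for the other tools.

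**Figure D4:**
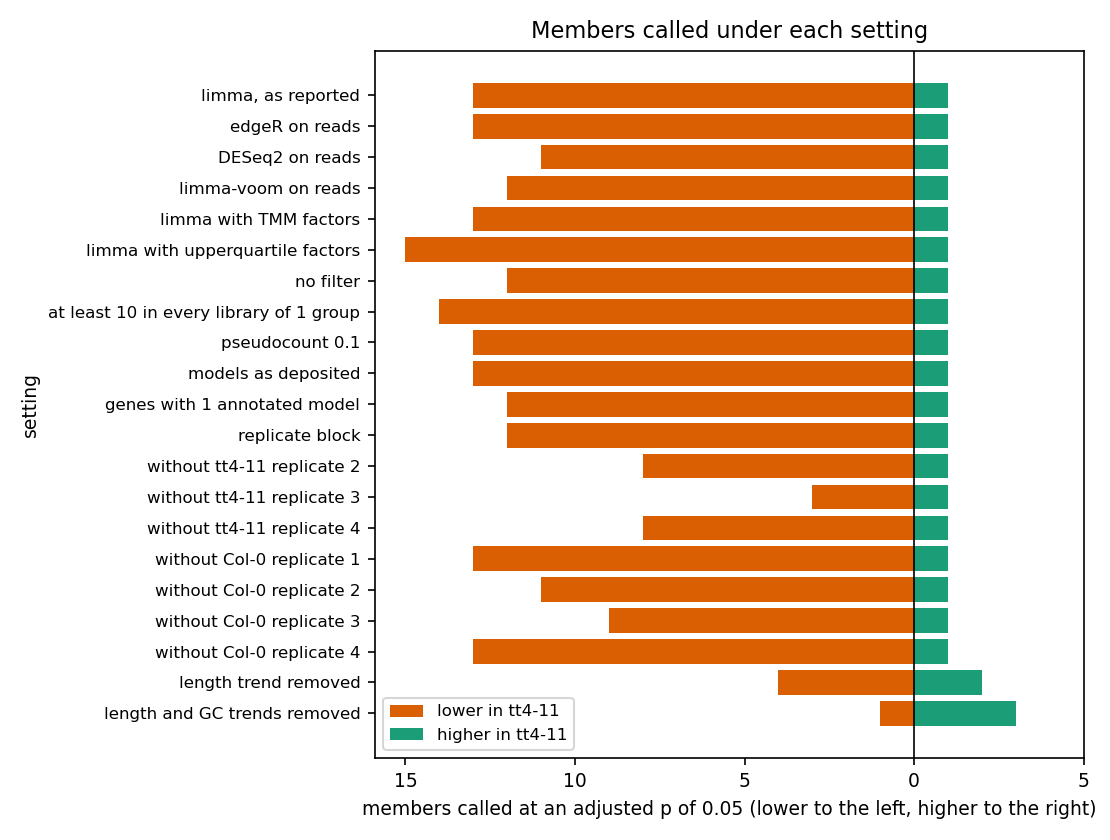
Number of members called lower (bars to the left) and higher (bars to the right) in tt4-11 at an adjusted p of 0.05, for the analysis as reported and 20 other settings. The lower count stays between 11 and 15 across tools, scalings and filters, drops to 3 without tt4-11 replicate 3, and is 4 and 1 with length, or length and GC, trends removed; RPS1 is included in every bar to the right.

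Other nuclear genes of plastid gene expression were examined for comparison. Of 44 tested genes in 5 lists, 7 (15.9%) were lower and 3 were higher, against 6.55% of all tested genes lower and 7.07% higher. Among the other plastid ribosome genes PSRP1, whose bacterial relatives silence idle ribosomes, had 345, 294 and 407 scaled reads in tt4-11 replicates 2 to 4, against 579, 466, 573 and 588 in Col-0 replicates 1 to 4. The groups were separate and it fell by 0.67 (SE 0.12; adjusted p = 0.00256, limma), while PSRP3/1 and PSRP3/2 did not pass. Among 9 tested translation factors 1 was higher. It was SCO1, the plastid elongation factor G, with 3347, 3249.8 and 3909.9 scaled reads in tt4-11 replicates 2 to 4, against 2491, 2737, 2633 and 2512 in Col-0 replicates 1 to 4. SCO1 lay above Col-0 in every tt4-11 library and rose by 0.43 (SE 0.10; adjusted p = 0.00898, limma). Among 14 tested ribosome assembly factors 1 (7.14%, near the share of all genes) was lower, the RNA helicase RH39, at -0.55 (SE 0.13; adjusted p = 0.0128, limma). Of 16 tested subunits and sigma factors of the plastid RNA polymerases, 5 were lower and 1 higher. SIG5, a sigma factor known to respond to light and stress, averaged 228 ± 22.8 in tt4-11 and 97.5 ± 16.6 in Col-0 (SD, n = 3 and 4), a rise of 1.23 (SE 0.14; adjusted p = 5.32e-05, limma). PAP8 and PAP5, polymerase-associated proteins, changed by -0.78 and -0.58 (adjusted p = 0.0171 and 0.0203, limma), and PAP9, PAP10 and SIG4 were also lower. GLK2, which drives genes of chloroplast development, averaged 394 ± 27.4 in tt4-11 and 288 ± 44.7 in Col-0 and rose by 0.46 (SE 0.13; adjusted p = 0.0231, limma), and the retrograde signalling gene GUN1 did not pass. Leaving out Col-0 replicate 3, tt4-11 replicate 3 or tt4-11 replicate 4 brought the lower count over all 5 lists to 4, 1 and 3, when 5.1%, 3.21% and 3.45% of all tested genes were called lower. Leaving out the last of these brought the higher count to 1, against 3.13% of all tested genes, and the share of all genes higher without Col-0 replicate 3 was 6.03%.

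The cytosolic ribosome translates the nuclear messages, and its protein genes were read in the same way. Of 60 tested cytosolic ribosomal protein genes 24 (40%) were lower, against 6.55% of all tested genes, 36 were not called and none was higher by limma, and 3 were higher and 31 lower at an unadjusted p under 0.05, while edgeR, DESeq2 and limma-voom called none higher. Of the 60 changes 49 were negative and 11 positive. Their median was -0.39, against -0.29 for the plastid ribosomal protein genes, and the difference between the lists was not tested.

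Marker genes of other cell types were read beside these counts, against 6.55% of all tested genes called lower and 7.07% called higher. Of 7 green-tissue markers 2 were lower (PSBO1 and PSAF) and none was higher. Of the 7 changes 4 were negative and 3 positive, with a median of -0.06. In GAPA every tt4-11 library lay above every Col-0 library, at a change of 0.35 (adjusted p = 0.0674, limma). The summed scaled reads of the green-tissue list were 16190.3 to 18545 in tt4-11 and 17703 to 20289 in Col-0. Of 10 tested root markers 1 (10%, near the share of all genes) was lower, LRX1. Of the 10 changes 9 were negative and the median was -0.42, beyond the -0.29 of the ribosomal protein genes. The 12 root markers listed summed to 9979 to 13114 in tt4-11 and 12334 to 13425 in Col-0, nearly all from the glucosidase gene PYK10, which did not pass (-0.13; adjusted p = 0.46, limma). Without PYK10 the sums were 385 to 516 in tt4-11 and 478 to 676 in Col-0, which overlapped, with a ratio of mean shares of 0.845. Of 5 tested dividing-cell markers 1 was lower (PCNA1), with a median change of -0.28. Summed with STM, which was not tested, the dividing-cell markers had 211 to 238 in tt4-11 and 244 to 335 in Col-0, and the groups did not overlap. The seed markers summed to 56.8 to 351 in tt4-11 and 22.0 to 121 in Col-0, nearly all from the oleosin gene OLEO1, which was higher (1.74; adjusted p = 0.0376, limma) although its groups overlapped, and the storage protein gene SESA1, which did not pass (1.23; adjusted p = 0.14). Markers near 0 in some libraries were PLT1 and PLT2 of the root tip and the seed storage genes CRA1 and CRU3. The part of root, dividing-cell or seed RNA in the ribosomal protein result was not tested.

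In the window from 250 bases before to 50 bases after the annotated start, searched on both strands, site II was found in 20 of the 37 members (54.1%; Wilson 95% interval 38.4 to 69.0%), against 24.4% of 20533 genes in the table. The I-box was found in 19 (51.4%, 35.9 to 66.6%), against 15.0% of the genes in the table. In the 250 bases before the start alone the shares were 40.5% for site II, against 21.8%, and 24.3% for the I-box, against 12.5%. The telo-box was in 10.8% of members, against 5.98%, the G-box (CACGTG) in 10.8%, against 8.72%, and the evening element (AAAATATCT) in 5.41%, against 2.91%. Cytosolic ribosomal protein genes had site II in 72.4%, the telo-box in 50% and the I-box in 15.8%. Between the 13 members called lower and the 20 tested without a call, site II was found in 69.2% (42.4 to 87.3%) and 45.0% (25.8 to 65.8%), and in the 250 bases before the start in 38.5% and 40%, with overlapping intervals. RPS1 had an I-box and no site II match in this window. A match is a run of letters and not a known binding site.

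The members lie on all nuclear chromosomes. RPL10 and RPS13 lie nearest to TT4 on chromosome 5, 147 kb before and 129 kb after its start, and RPS1 lies 7.13 Mb away. Another annotated gene overlaps 14 members, in 13 of them on the opposite strand, and 6 of the 13 members called lower are among these. The overlap with the largest such partner covers 482 bases in RPS20, 440 in RPL12-A, 429 in RPL10, 312 in RPL18 and 66 in RPL24. A further gene on the opposite strand overlaps 127 bases of RPS20 and 148 of RPL10. The share of all genes with such an overlap was not counted. The library kit keeps strand, but whether the reads were counted by strand is not given in the sources used here, so reads of these genes and of their antisense partners may be mixed.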

How the data were processed

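Polyadenylated RNA of whole seedlings was read as stranded single reads, per the labels' protocols. TopHat2, HISAT2, HTSeq and DESeq2 are named in the submitters' processing notes, without versions, and the genome build is not given in the sources used here. Of the columns the authors deposited, Col-0 replicate 4 holds read counts per transcript model and the other 6 hold a signal, read counts multiplied by 1 factor per library. Division by that factor gave whole reads in 100% of values (tolerance 0.01). The log2 fold changes and p-values in the authors' deposited table served for comparison only.

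A single repeated row was dropped from 23052, and scaled values were summed over the models of a gene. Because most columns are scaled, the main test was limma (version 3.58.1, trend option) on log2(value + 1), a scale that understates changes of genes with few reads, after filterByExpr with a minimum count of 10. The 3 tt4-11 libraries were set against the 4 Col-0 libraries without a covariate. edgeR (version 4.0.16), DESeq2 (version 1.42.0) and limma-voom on the recovered reads were alternatives, as were TMM and upper-quartile scaling, other filters, a pseudocount of 0.1, an adjusted p of 0.01, models as deposited, genes with 1 annotated model, removal of length and GC trends (natural splines, 5 degrees of freedom) and each library left out. The scripts were tested on simulated data. Positions, lengths and upstream sequences come from the TAIR10.1 annotation and genome (RefSeq), matched by locus identifier for 20534 genes and for all 37 members.

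The members and gene lists were chosen with earlier results of these data known. The rule for cytosolic ribosomal proteins was narrowed to 76 genes with eukaryotic-type names after it was seen to include organellar families. RPL12-B and GLK1 were not analysed here, and 2 members enter the counts but are not reported singly. Values are given for the other called members, the 3 members with the most scaled reads, the plastid-specific genes and the RPL12 and RPL19 pairs, and for up to 3 called genes of each other list. RPS6, RPS21, RPL6, RPL28 and RPL29 were added after their values were seen.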

Additional observations from a re-analysis of the deposited data

Results flagged for a closer look

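A Col-0 library stood apart from the other 3 in 6 of 45 sets of Col-0 values examined with Dixon's test. Chance flags about 1 in 20 independent groups. These sets come from the same libraries and some are sums over member genes, so they are not independent and the count cannot be set against that rate. Col-0 replicate 1 was the high library in 5 of the 6. It had 1368.8 scaled reads of RPS21, 1380.3 of RPL21 and 660.04 of PSRP6, none of which was called between the groups. In the same library the large-subunit genes made up 0.855% of all scaled reads and the L12 stalk genes 0.149%. Col-0 replicate 4 was the high library for RPL3, with 1291 scaled reads.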

How the results depend on the processing

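Across the 34 tested members and the alternatives run for each, 623 fits kept the direction and the side of the threshold, 56 lost the call, 11 gained one and 17 changed sign, all of these in members not called either way (RPL28, at 0.00, is counted by its side of the threshold alone). With the length trend removed the change was 0.01 in RPL15, 0.13 in RPL29 and 0.03 in RPL31. With the GC trend removed too it was 0.05 in RPL15, 0.25 in RPL29, 0.02 in RPL31, 0.01 in RPL34 and 0.01 in PSRP6. Fits without 1 library ranged from -0.02 to 0.20 in RPL1, -0.01 to 0.14 in RPL21, -0.04 to 0.17 in RPL27 and -0.10 to 0.05 in RPL29, and RPL27 was at -0.02 in the fits of replicates 2 to 4 with and without the block. The 13 lower members became 4 at an adjusted p of 0.01, 4 with the length trend removed and 1 when the GC trend was removed too, and ranged from 3 to 13 over the 7 fits that left out 1 library. The 1 higher member became 2 and 3 with these trends removed, and stayed 1 without any 1 library. The median change was -0.18 with the length trend removed and -0.11 with both removed, and -0.31 to -0.24 without 1 library. In the other plastid gene expression lists the lower count of 7 became 1 at an adjusted p of 0.01 and ranged from 1 to 9 without 1 library. The higher count of 3 became 1 in genes with 1 annotated model, where fewer genes are tested, and ranged from 1 to 4 without 1 library. The I-box share of members became 24.3% in the bases before the start alone. Apart from these, the cause of each change was not tested. The share of all tested genes at an adjusted p of 0.01 was not counted. With the replicate number as a block over replicates 2 to 4, 12 members were lower, against 5.99% of all tested genes. Of these 12, 11 were among the 13. The same 6 libraries with no block, a fit chosen after seeing the data, gave 13 lower members, against 5.86%. This is the same fit as the one without Col-0 replicate 1, so it adds no further result. The counts of settings and of fits above hold it under both names. Same-numbered libraries correlated at 0.053, 0.064 and 0.041 in their deviations from the group means, each the highest for its number. The other pairs ran from -0.057 to 0.003. The main test assumed no pairing, and whether same-numbered libraries were handled together was not tested. With 2021368 to 2205449 reads a library, RPS10, RPS13 and RPL4 could not be tested and PSRP2 rested on 93 reads in tt4-11 and 143 in Col-0.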
